A study of Mus musculus with 12 samples.

Results

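Transcripts of 10 focal adhesion and stress fibre proteins were followed by RNA-seq in primary mouse mesangial cells (MMC): Actn1, Flna, Vcl, Zyx, Tln1, Pxn, Lasp1, Lpp, Lima1 and Pdlim7. They were taken by gene symbol, each symbol matched 1 row of the count data, and they are 10 of the 25230 genes listed. Mesangial cells are the contractile pericyte-like cells of the glomerulus, and TGF-β is a growth factor that drives their matrix production in diabetic kidney disease. The study asked how loss of lncMGC, the long non-coding RNA that hosts the miR-379 microRNA megacluster, changes expression in MMC under serum depletion or TGF-β. There were 4 groups of 3 libraries each, all from primary MMC labelled as kidney mesangial cells. WT-SD and WT-TGF were cells of wild-type mice. KO-SD and KO-TGF were cells of the lncMGC-KO5 line, a single mutant mouse line that carries a CRISPR-Cas9 deletion at the start of lncMGC, so that its differences from WT are those of 1 line. SD stands for serum-depleted, untreated cells, and TGF for cells given TGF-β at 10 ng/ml, both at 24 h. The study calls the samples of a group independent. The age of the mice, the number of mice behind a group and whether independent means separate cultures or separate mice were not given in the sources used here. The p-values below therefore rest on the spread between libraries within groups, whatever its source. That spread was estimated from the 4 groups together, with information shared across genes.

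Focal adhesions are the sites where integrins of the plasma membrane, bound to matrix outside the cell, are tied to actin inside it. Talin binds the integrin tail and, when it is stretched, recruits vinculin, while paxillin and the zyxin family of LIM domain proteins gather signalling and actin assembly factors at the same site. Alpha-actinin and filamin crosslink the actin filaments that run from adhesions into contractile stress fibres, and cells that take on a myofibroblast-like, contractile state under TGF-β are known for thicker stress fibres and larger adhesions.

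Each library held between 19898050 and 22827706 counts on genes, and no library looked like a repeat of another, since pairs within a group gave a chi-square per degree of freedom of 1.35 to 5.41. Reads assigned to no feature, that is to no annotated exon on the counted strand, were 15.2% to 15.4% of WT-SD, 12.2% to 12.5% of WT-TGF, 12.7% to 13.4% of KO-SD and 10.3% to 10.9% of KO-TGF libraries. The TMM scaling factors fell in the ranges 1.11 to 1.12, 0.974 to 0.978, 1.03 to 1.04 and 0.887 to 0.893 in the same order. Both measures therefore moved with treatment and genotype, and their part in the results below was not tested. lncMGC itself was not among the genes counted, so the genotype labels were not checked by the targeted transcript. Mirg, a non-coding RNA that overlaps the 3′ part of lncMGC, was not lower in the libraries labelled KO, so it did not bear out the genotype labels either. Without TGF-β it had 2.1 to 2.64 CPM in WT, against 3.32 to 4.31 CPM in KO libraries, which did not overlap. With TGF-β it had 3.46 to 3.76 CPM in WT, against 3.69 to 4.70 CPM in KO libraries, which did. The study itself reported, by RT-qPCR, significantly lower Mirg in KO5 than in WT MMC and no lncMGC expression in KO5 MMC. Every KO value below is that of the libraries as labelled. Of the mesangial markers, Pdgfrb had 283 to 385 CPM as group means, whereas Thy1 was at or under 3 counts in every library and Des had 7.53 CPM in WT-SD, against 0.250 CPM in KO-TGF. Cspg4, another of these markers, ran the other way, with 39.0 CPM in WT-SD, against 492 CPM in KO-TGF. The podocyte gene Nphs1 was at or under 3 counts in every library.

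The promoters of the members give a first view of how unlike the genes of this group are. The windows were the RefSeq ones on GRCm38.p6, from 250 bases before to 50 bases after a start site. There was a window for 9 of the 10 members, with a pair of them for Lpp, and each was searched on both strands for the CArG box bound by serum response factor, for CAGAC as the SMAD element and for GGAATG as the TEAD element. Vcl and Lima1 are shown because both held a CArG box, with the same letters, although Vcl was higher and Lima1 lower with TGF-β. Flna is shown as a window with a GGAATG element alone, read here from the other strand. Capitals mark the matches, and each line runs 5′ to 3′ on the strand of the gene.

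Vcl, chr14:20929148-20929447, plus strand: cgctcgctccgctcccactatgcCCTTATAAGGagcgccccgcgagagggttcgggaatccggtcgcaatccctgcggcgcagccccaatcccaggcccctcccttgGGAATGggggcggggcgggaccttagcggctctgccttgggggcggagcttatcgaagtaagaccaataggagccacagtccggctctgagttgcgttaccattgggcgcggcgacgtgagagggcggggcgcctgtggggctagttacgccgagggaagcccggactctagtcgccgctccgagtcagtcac

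Lima1, chr15:99820100-99820399, minus strand, at a start site inside the gene: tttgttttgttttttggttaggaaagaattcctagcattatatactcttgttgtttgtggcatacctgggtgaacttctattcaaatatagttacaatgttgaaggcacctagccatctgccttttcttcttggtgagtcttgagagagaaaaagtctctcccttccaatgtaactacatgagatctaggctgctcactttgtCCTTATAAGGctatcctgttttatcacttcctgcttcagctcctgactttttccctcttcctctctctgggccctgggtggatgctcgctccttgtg

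Flna, chrX:74246485-74246784, minus strand, at a start site inside the gene: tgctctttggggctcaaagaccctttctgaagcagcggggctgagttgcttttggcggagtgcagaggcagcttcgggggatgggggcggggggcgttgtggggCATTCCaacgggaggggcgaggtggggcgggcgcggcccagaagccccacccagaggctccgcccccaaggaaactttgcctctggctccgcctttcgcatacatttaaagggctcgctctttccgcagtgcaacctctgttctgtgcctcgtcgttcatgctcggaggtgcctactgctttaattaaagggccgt

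The CArG box began 227 bases before the start site in Vcl and 47 bases before it in Lima1, and 1.63% of all 32851 promoter windows held one. GGAATG was in windows of Flna, Vcl and Lpp and in 14.7% of all windows. CAGAC was in windows of Lasp1, Lpp, Tln1 and Zyx and in 49.6% of all windows. No element was found in the windows of Actn1 and Pdlim7, which says only that these letters are absent from the window. A match is a description of the sequence and not a bound site.

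On GRCm38 (RefSeq) the genes lie on different chromosomes: Actn1 at chr12:80167542-80260420, Flna at chrX:74223461-74249854, Tln1 at chr4:43531513-43562583, Lima1 at chr15:99778468-99875477 and Pdlim7 at chr13:55497487-55513473 on the minus strand. On the plus strand lie Vcl at chr14:20929383-21033676, Zyx at chr6:42349511-42360213, Pxn at chr5:115491970-115555987, Lasp1 at chr11:97799005-97838765 and Lpp at chr16:24393350-24992578. In GENCODE vM21, Actn1, Pxn, Lpp, Lima1 and Pdlim7 overlap another annotated gene on their own strand. Reads that fit more than 1 RefSeq gene were not counted, and whether RefSeq holds the same overlaps was not checked.

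The 10 transcripts were abundant in every library, with an RPKM (reads per kilobase of exon, scaled to library depth) above 1 in all 12. Levels of different genes are compared per length only. In WT-SD, Flna led with 265 RPKM, followed by Actn1 with 152, Vcl with 83.0, Lima1 with 70.7, Zyx with 60.2 and Tln1 with 59.8 RPKM. Lasp1 had 33.0, Lpp 25.2, Pxn 24.7 and Pdlim7 22.8 RPKM. Zyx and Tln1 overlapped between libraries, and all other neighbours in this order did not. The lower end depended on the length used, since with the longest transcript in place of all exons Pxn (53.7 RPKM) stood above Lpp (35.9 RPKM). In KO-TGF the order was led by the same genes, with Flna at 677, Actn1 at 452, Vcl at 239 and Zyx at 118 RPKM, while Lima1, at rank 4 in WT-SD, was at rank 7 with 59.5 RPKM.

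Summed over the 10 genes, CPM (counts relative to library size, with sizes scaled by TMM) were 6537 ± 98.4 (SD, n = 3) in WT-SD, 10278 ± 86.4 in WT-TGF, 9333 ± 45.9 in KO-SD and 14716 ± 95.4 in KO-TGF. Flna alone made up between 38.0% and 43.3% of the sum, and without it the other 9 genes ran in the same order, from 4050 ± 30.0 CPM in WT-SD to 8347 ± 5.07 CPM in KO-TGF. The members' share of all counts on genes amounts to scaling by library size alone, without TMM. It was 0.721% to 0.736% in WT-SD, 0.996% to 1.01% in WT-TGF, 0.963% to 0.970% in KO-SD and 1.30% to 1.32% in KO-TGF. The share was therefore lowest in untreated WT and highest in treated KO cells, with no overlap between groups. In bulk RNA, more cells that express a gene and more RNA per cell cannot be told apart.

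**Figure D1:**
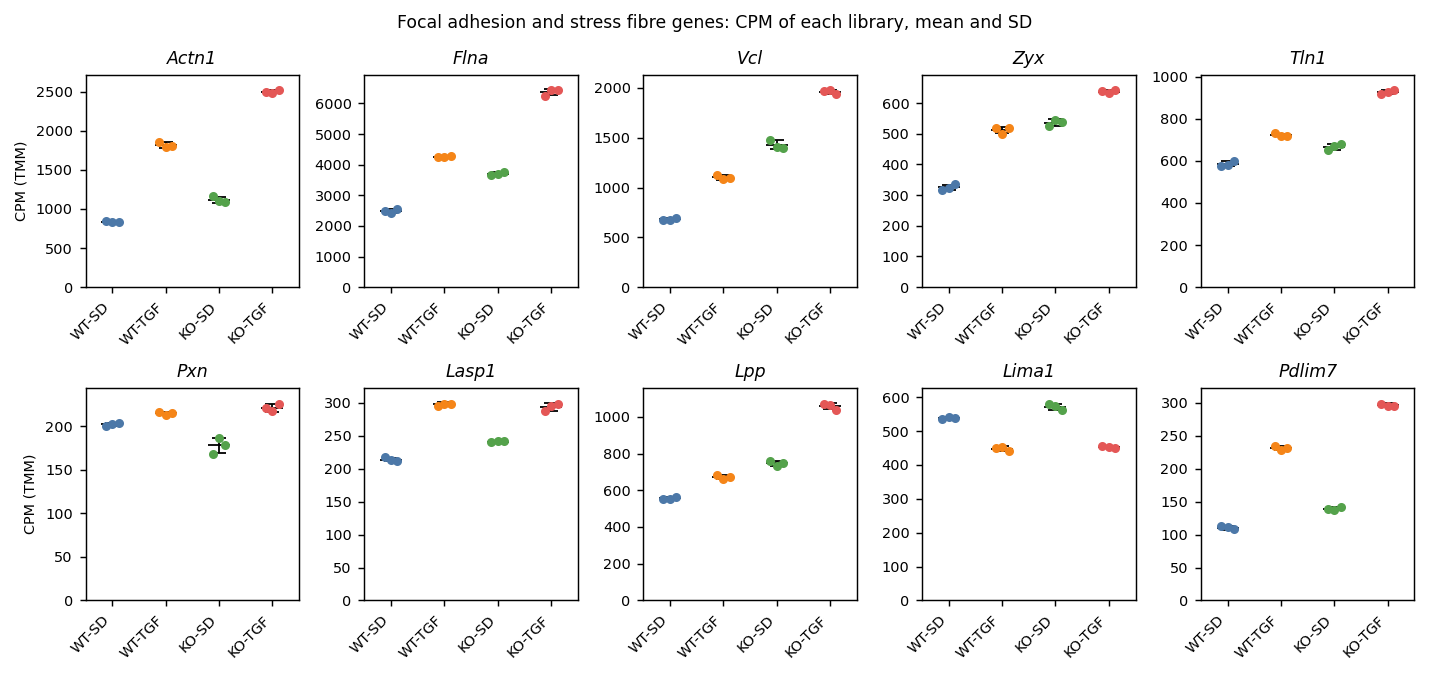
CPM (TMM-scaled, linear axes from 0) of each of the 10 genes in every library of the 4 groups, with points for libraries and bars for the mean and SD of 3. Actn1, Flna, Tln1 and Pdlim7 were lowest in WT-SD and highest in KO-TGF, as were Vcl, Zyx and Lpp, whose KO-SD libraries also lay above WT-TGF (Vcl 1402 to 1480 against 1082 to 1131 CPM), while Lima1 was lower with TGF-β in both genotypes.

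All 10 genes passed the test for a TGF-β response in WT MMC (WT-TGF against WT-SD), 9 higher and 1 lower, and Actn1 and Pdlim7 also passed a 2-fold change. The test was edgeR's quasi-likelihood test on all 12 libraries, with Benjamini-Hochberg adjustment over the 11469 genes tested and a threshold at an FDR of 5%. At this threshold 72.7% of all genes tested passed, 39.3% higher and 33.4% lower, and 9.76% also passed a 2-fold change, so a call alone says little, and the sizes carry the description. The median log2 fold change was 0.57 for the 10 genes and 0.03 for all genes tested. Of the genes called, 54.1% were higher, or 30.6% when libraries were scaled by their size alone, which put the median of all genes at -0.16. With 3 libraries against 3, an exact permutation test could not fall below p = 0.1. The treated libraries of all 10 genes did not overlap the untreated ones, which held for 75.4% of all genes tested.

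Of the crosslinkers, Actn1, which encodes the non-muscle alpha-actinin of stress fibres and adhesions, had 844, 836 and 837 CPM in WT-SD, against 1861, 1794 and 1808 CPM in WT-TGF. The groups lay far apart, a log2 fold change of 1.12 ± 0.0229 (SE; edgeR FDR = 1.79e-27). Flna, the filamin that ties actin networks to integrins and membrane, had 2470, 2427 and 2563 CPM in WT-SD, against 4239, 4235 and 4280 CPM in WT-TGF, 1.71-fold more (log2 0.77 ± 0.0202). Pdlim7, a PDZ and LIM domain protein of stress fibres, was the lowest member per length in WT-SD, but at rank 7 in WT-TGF (47.7 RPKM). It had 113, 111 and 108 CPM in WT-SD and rose to 234, 228 and 232 CPM in WT-TGF, which is a log2 fold change of 1.06 ± 0.0271. Actn1 and Pdlim7 so rose by similar factors, 2.17-fold and 2.09-fold, at different levels (152 and 22.8 RPKM in WT-SD).

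Vinculin and zyxin, which are recruited to adhesions under tension, formed the next step. Vcl had 674, 675 and 691 CPM in WT-SD, against 1131, 1082 and 1098 CPM in WT-TGF, a log2 fold change of 0.70 ± 0.0234. Zyx had 317, 322 and 335 CPM in WT-SD, against 519, 501 and 519 CPM in WT-TGF, a log2 fold change of 0.66 ± 0.0254. In both genes every treated library lay above every untreated one. Lasp1, a LIM and SH3 domain actin-binding protein, went from 212 to 218 CPM in WT-SD to 295 to 299 CPM in WT-TGF (1.39-fold). Tln1, the talin that links integrins to actin, went from 577 to 599 CPM up to 719 to 730 CPM, a rise of 23.4%, and Lpp, a zyxin family member, from 551 to 561 CPM up to 661 to 685 CPM, a rise of 21.1%.

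Pxn and Lima1 differed from the rest. Pxn, the scaffold protein paxillin, had 200, 202 and 204 CPM in WT-SD, against 216, 213 and 215 CPM in WT-TGF, so that the groups did not overlap, but the log2 fold change was only 0.09 ± 0.0292 (edgeR FDR = 0.00953), and it was -0.10 when libraries were scaled by their size alone. Lima1 (EPLIN), an actin bundling and side-binding protein that stabilises filaments, was the member that fell with TGF-β. It had 535, 540 and 537 CPM in WT-SD, against 450, 454 and 441 CPM in WT-TGF, a fall of 16.6% (log2 -0.26 ± 0.0227, edgeR FDR = 1.15e-11).

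In KO MMC the same test (KO-TGF against KO-SD) again called all 10 genes, 9 higher and Lima1 lower, where 74.2% of all genes tested passed, 36.4% higher and 37.8% lower. Actn1 (2.24-fold) and Pdlim7 (2.13-fold) passed a 2-fold change, as did 13.3% of all genes. The median log2 fold change was 0.46 for the 10 genes and -0.01 for all genes. Of all genes called, 49.0% were higher, or 25.7% under scaling by library size alone, with a median of all genes at -0.23. Treated and untreated libraries did not overlap for all 10 genes and for 74.5% of all genes tested.

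Actn1 had 1161, 1098 and 1092 CPM in KO-SD and 2492, 2488 and 2519 CPM in KO-TGF. Flna had 3669, 3687 and 3761 CPM in KO-SD and 6253, 6429 and 6422 CPM in KO-TGF, 1.72-fold more. Pdlim7 went from 139, 137 and 142 CPM to 299, 296 and 295 CPM. For these crosslinkers and for Pdlim7 the libraries of KO cells were higher than those of WT cells at either condition, and the fold with TGF-β was close to that in WT. Vcl had 1480, 1411 and 1402 CPM in KO-SD and 1966, 1977 and 1940 CPM in KO-TGF (log2 0.45 ± 0.0230). Zyx had 524, 545 and 539 CPM in KO-SD and 639, 632 and 642 CPM in KO-TGF, a rise of 18.9% (log2 0.25 ± 0.0249, edgeR FDR = 1.98e-10), which shrank to a log2 of 0.03 and was not called under scaling by library size alone. Both genes had treated libraries above all untreated ones.

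Lpp rose by 41.8% in KO cells, from 758, 732 and 750 CPM to 1072, 1065 and 1038 CPM. Tln1 rose by 38.9%, from 651, 671 and 678 CPM to 918, 925 and 935 CPM. Pxn, with the widest relative spread of the members in KO-SD at 168, 186 and 178 CPM, rose by 24.7% to 221, 217 and 226 CPM (log2 0.32 ± 0.0298). Lasp1 rose by 22.0%, from 240 to 242 CPM in KO-SD to 288 to 299 CPM in KO-TGF. Lima1 fell by 20.9%, from 581, 573 and 563 CPM to 457, 452 and 449 CPM (log2 -0.34 ± 0.0228), so that its treated libraries lay below its untreated ones in KO as in WT cells.

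**Figure D2:**
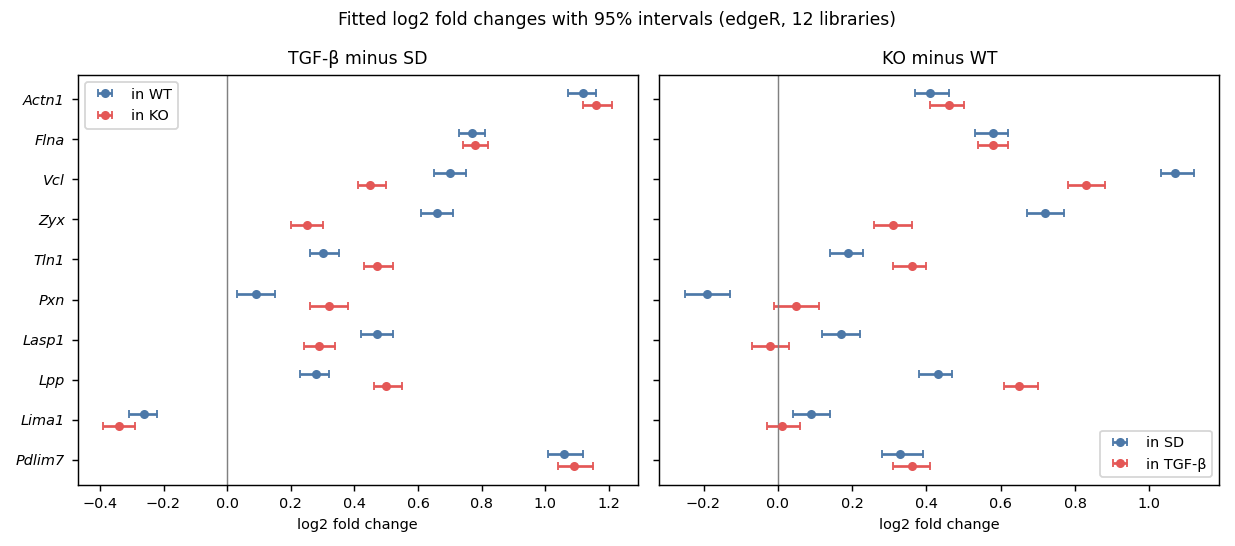
Fitted log2 fold changes of the 10 genes with 95% intervals, for TGF-β minus SD in WT and in KO cells (left) and for KO minus WT in SD and in TGF-β (right). Lima1 was the member below 0 with TGF-β in both genotypes (-0.26 and -0.34), and Vcl had the largest difference between the genotypes in either condition (1.07 and 0.83).

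The comparison of genotypes without TGF-β (KO-SD against WT-SD) called 9 genes higher and 1 lower in KO, where 57.2% of all genes tested passed, 35.6% higher and 21.6% lower. Vcl also passed a 2-fold change, as did 6.34% of all genes. The median log2 fold change was 0.37 for the 10 genes and 0.05 for all genes. Of all genes called, 62.3% were higher in KO, or 37.0% under scaling by library size alone. Vcl stood 2.1-fold higher in KO-SD than in WT-SD (log2 1.07 ± 0.0234, edgeR FDR = 2.90e-26), and Zyx 1.65-fold higher (log2 0.72 ± 0.0253). Flna was 1.49-fold, Lpp 1.34-fold, Actn1 1.33-fold and Pdlim7 1.26-fold higher. Vinculin and zyxin thus differed most between the untreated genotypes, ahead of the crosslinkers, whereas Actn1 and Pdlim7 had led the response to TGF-β.

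Smaller differences were found for the remaining members. Tln1 was 13.8% and Lasp1 12.5% higher in KO-SD. Lima1 was 6.47% higher (log2 0.09 ± 0.0225, edgeR FDR = 0.000996), a direction that turned to a log2 of -0.01 under scaling by library size alone. Pxn was lower in KO-SD, by 12.2% (log2 -0.19 ± 0.0295, edgeR FDR = 2.57e-06). In all 10 genes the 3 KO-SD libraries did not overlap the 3 WT-SD libraries, as in 60.4% of all genes tested.

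With TGF-β (KO-TGF against WT-TGF), 7 genes were higher in KO, none was lower and 3 did not pass, where 55.1% of all genes tested passed, 28.9% higher and 26.3% lower. The median log2 fold change was 0.36 for the 10 genes and 0.01 for all genes. Of all genes called, 52.4% were higher in KO, or 23.4% under scaling by library size alone, with a median of all genes at -0.12. Vcl was again first, 1.78-fold higher (log2 0.83 ± 0.0232), followed by Lpp, 1.57-fold higher (log2 0.65 ± 0.0228), and Flna, 1.5-fold higher. Actn1 was 1.37-fold, Pdlim7 1.28-fold, Tln1 1.28-fold and Zyx 1.24-fold higher. No member passed a 2-fold change, and 5.99% of all genes did.

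For Pxn, Lasp1 and Lima1 the genotypes were close under TGF-β. The 95% interval of the log2 difference was -0.01 to 0.11 for Pxn, -0.07 to 0.03 for Lasp1 and -0.03 to 0.06 for Lima1 (edgeR FDR = 0.198, 0.586 and 0.646), and the libraries of Lasp1 and Lima1 overlapped, whereas those of the other 8 genes did not, as in 61.8% of all genes tested. Under scaling by library size alone these differences were -0.09, -0.15 and -0.12, all lower in KO, while that scaling also lowered the median of all genes.

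The 7 genes Actn1, Flna, Vcl, Zyx, Tln1, Lpp and Pdlim7 were called higher in all 4 of these comparisons, with TGF-β in both genotypes and in KO in both conditions. The same held for 1630 of the 11469 genes tested, or 14.2%. The 4 comparisons share libraries pairwise, so the count is a description. In Vcl, Zyx and Lpp the untreated KO libraries already lay above the treated WT libraries, with 1402 to 1480 against 1082 to 1131 CPM in Vcl, 524 to 545 against 501 to 519 CPM in Zyx and 732 to 758 against 661 to 685 CPM in Lpp. In Actn1, Flna, Tln1, Lasp1 and Pdlim7 they lay below them. These groups differ in genotype and treatment at once, and the difference was not tested.

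The response to TGF-β itself differed between the genotypes for 6 of the 10 genes, 3 with a larger and 3 with a smaller response in KO, by the test of the interaction of genotype and treatment, which 26.4% of all genes tested passed (7.69% with a higher and 18.7% with a lower value in KO). Of all genes called, 29.1% had a higher value in KO, or 45.5% with DESeq2 and its own size factors. Zyx had the largest difference, with a log2 response of 0.66 in WT and 0.25 in KO, so that the interaction was -0.41 ± 0.0355 (edgeR FDR = 1.37e-10). Vcl followed, with 0.70 in WT and 0.45 in KO (interaction -0.24 ± 0.0327, edgeR FDR = 7.08e-07). Lasp1 had 0.47 in WT and 0.29 in KO (interaction -0.19 ± 0.0353, edgeR FDR = 0.000128). In Vcl and Zyx the smaller response came with a higher untreated level in KO, and neither gene reached a lower level in KO than in WT cells under TGF-β.

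Larger responses in KO were found for Lpp, Pxn and Tln1. Lpp had a log2 response of 0.28 in WT and 0.50 in KO (interaction 0.23 ± 0.0322, edgeR FDR = 1.83e-06). Pxn had 0.09 in WT and 0.32 in KO (interaction 0.23 ± 0.0417, edgeR FDR = 6.26e-05), from an untreated level that was lower in KO. Tln1 had 0.30 in WT and 0.47 in KO (interaction 0.17 ± 0.0323, edgeR FDR = 0.000132). Zyxin and Lpp, which belong to 1 protein family, therefore moved in opposite directions in this test.

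The interaction did not pass for the remaining 4 genes. Its 95% interval was -0.02 to 0.11 for Actn1, -0.05 to 0.07 for Flna, -0.05 to 0.10 for Pdlim7 and -0.14 to -0.01 for Lima1, whose edgeR FDR was 0.0769. The absence of a call depended on the setting for Actn1 and Lima1. For Actn1 the interaction was 0.07 with an edgeR FDR of 0.0356 without KO-SD replicate 1, and 0.10 with DESeq2 on all libraries (FDR = 0.0363). For Lima1 it was -0.11 under scaling by library size alone (edgeR FDR = 0.0110). The intervals of Actn1, Flna and Pdlim7 were narrow beside the responses themselves, which were near 1.12 in Actn1, 0.77 in Flna and 1.06 in Pdlim7 in WT.

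**Figure D3:**
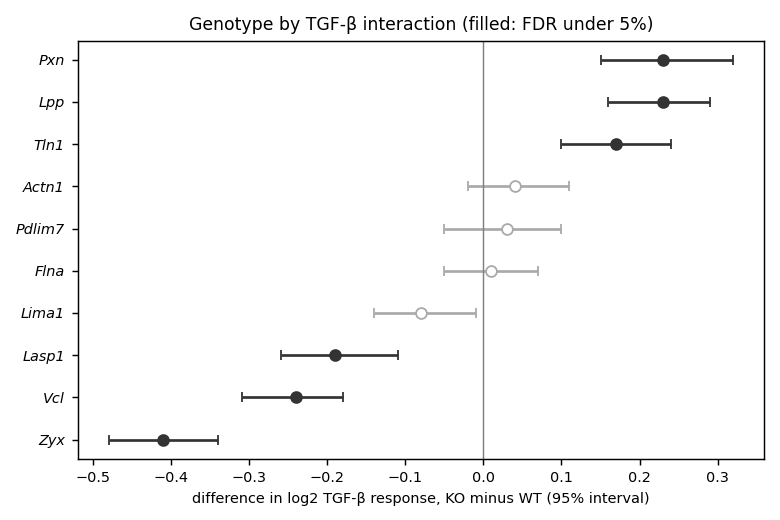
Difference in log2 TGF-β response, KO minus WT, for each of the 10 genes with its 95% interval, filled where the FDR was under 5%. Pxn (0.23), Lpp (0.23) and Tln1 (0.17) lay above 0, Lasp1 (-0.19), Vcl (-0.24) and Zyx (-0.41) below it, and the intervals of Actn1, Flna and Pdlim7 spanned 0.

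Ratios of counts within a library do not depend on how libraries are scaled to each other, and these pairs were chosen after the values were seen. They are not corrected for gene length, so each is compared between libraries and says nothing of which gene is the more abundant. The ratio of Lpp to Zyx was 1.75, 1.71 and 1.67 in WT-SD and 1.32, 1.32 and 1.29 in WT-TGF. In KO it ran the other way, with 1.45, 1.34 and 1.39 in KO-SD and 1.68, 1.69 and 1.62 in KO-TGF. TGF-β thus came with less Lpp per Zyx in WT libraries and more in KO libraries, without overlap between treated and untreated libraries of a genotype. The ratio of Vcl to Tln1 was 1.15 to 1.17 in WT-SD and 1.51 to 1.55 in WT-TGF, whereas KO-SD (2.07 to 2.27) and KO-TGF (2.08 to 2.14) overlapped. The ratio of Actn1 to Lima1 was 1.55 to 1.58 in WT-SD, 3.95 to 4.13 in WT-TGF, 1.92 to 2.0 in KO-SD and 5.45 to 5.61 in KO-TGF. The ratio of Flna to Actn1 was 2.90 to 3.06 in WT-SD and 2.28 to 2.37 in WT-TGF, and 3.16 to 3.45 and 2.51 to 2.58 in KO, so that treated cells of both genotypes held less filamin A per alpha-actinin-1 transcript count.

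**Figure D4:**
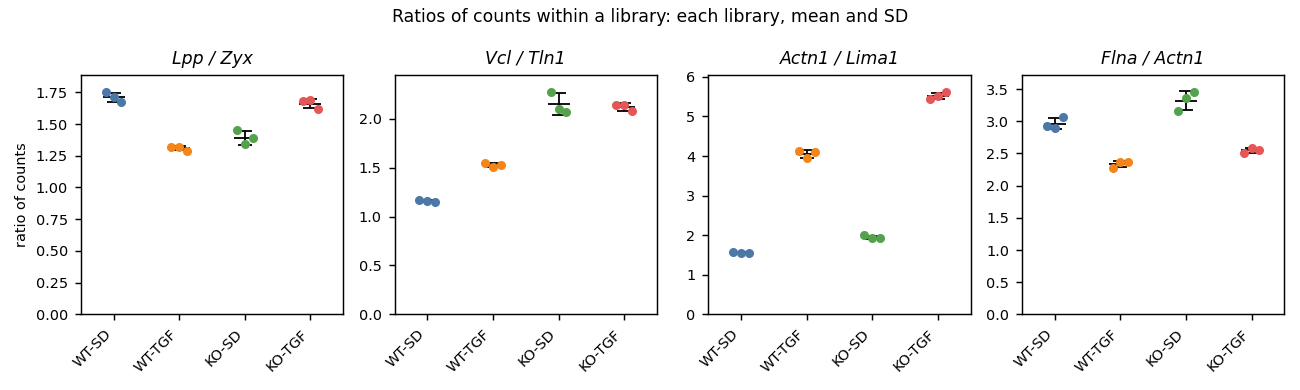
Ratios of raw counts of member pairs within each library, with points for libraries and bars for the mean and SD of 3, on linear axes from 0. The Lpp to Zyx ratio fell from a mean of 1.71 to 1.31 with TGF-β in WT and rose from 1.39 to 1.66 in KO, whereas the Actn1 to Lima1 ratio was higher with TGF-β in both genotypes (4.06 against 1.56, and 5.52 against 1.95).

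Across the 12 libraries, which share the 4 groups, log2 CPM of Actn1 and Pdlim7 ran together most closely (Pearson r = 1.0), then Flna and Tln1 (0.98) and Vcl and Zyx (0.97). Lima1 ran against Pxn (-0.89), Pdlim7 (-0.88), Lasp1 (-0.87) and Actn1 (-0.85). Among the 11459 other genes tested, the nearest in pattern was Ptgs2 for Actn1 (r = 0.999), Pkm for Flna (0.999), Chsy1 for Pdlim7 (0.999), Thbs1 for Vcl (0.998), Flnc for Tln1 (0.998) and Pde5a for Lima1 (0.998). Emp1 was nearest to Zyx (0.997), Hs2st1 to Lpp (0.996), Cmklr1 to Lasp1 (0.995) and Abcc1 to Pxn (0.978). With 4 groups, most of each correlation is a likeness of 4 means. A like order need not be a like size: Ptgs2 had 74.9 ± 2.67 CPM in WT-SD, against 514 ± 37.6 CPM in WT-TGF, a far wider range than Actn1.

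Close family genes of the members did not all follow them. Filamin C (Flnc) rose with TGF-β by a log2 of 0.28 in WT and 0.45 in KO, less than Flna. Talin 2 (Tln2) rose by 1.79 and 1.77, from 52.1 ± 3.20 CPM in WT-SD to 181 ± 2.72 CPM in WT-TGF. Actn4, the other non-muscle alpha-actinin, rose by only 0.23 and 0.19, values that were 0.04 and -0.03 and did not pass under scaling by library size alone. The talin and alpha-actinin families so held members with unlike responses to 1 stimulus.

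The paxillin relative Hic-5 (Tgfb1i1) had 115, 114 and 113 CPM in WT-SD, against 189, 187 and 181 CPM in WT-TGF, a log2 fold change of 0.71 ± 0.0280 (edgeR FDR = 4.36e-20), against 0.09 in Pxn. It was higher in KO by 0.58 in SD and 0.54 in TGF-β, where Pxn was lower by 12.2% in SD. Nebl, whose products include a LIM and SH3 protein related to Lasp1, rose by 1.88 in WT and 3.08 in KO, but was lower in KO (log2 -2.08 in SD and -0.88 in TGF-β). In the zyxin family, Fblim1 (migfilin) rose by 0.82 and 0.68, Ajuba by 0.21 and 0.25, and Trip6 (-0.14 and -0.28) and Limd1 (-0.14 and -0.16) fell. Ajuba did not pass in either genotype under scaling by library size alone.

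Among the PDZ and LIM domain genes, Pdlim1 rose with TGF-β by 1.20 in WT and 1.09 in KO, close to Pdlim7. Pdlim2 fell by 0.76 on the log2 scale in WT, from 25.4, 23.7 and 26.3 CPM to 14.5, 14.0 and 16 CPM, and was lower in KO (log2 -0.95 in SD and -1.78 in TGF-β). Pdlim4, at 7.41 CPM or less as group means, had values of -1.09 and -1.35 with TGF-β. Pdlim5 did not pass with TGF-β (0.01 in both genotypes, and -0.18 and -0.21 under scaling by library size alone) and was higher in KO by 0.34 and 0.33. Ldb3 rose by 0.52 and 0.63. Lpxn and Pdlim3 were listed but had too few counts to be tested. The family of Pdlim7 therefore held genes that moved in both directions.

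**Figure D5:**
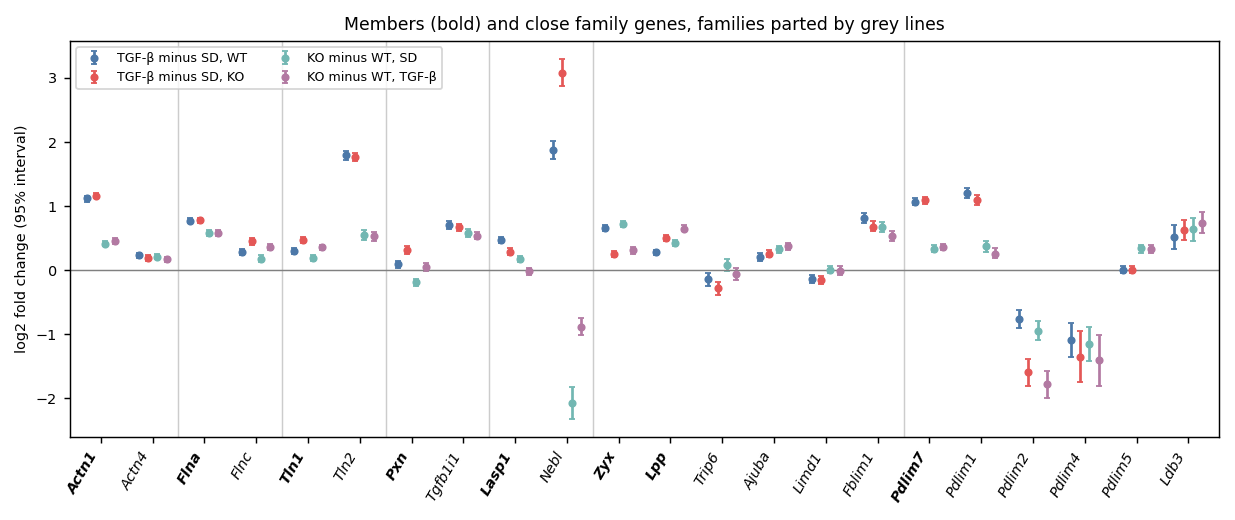
Fitted log2 fold changes with 95% intervals of members (bold) and their close family genes in the 4 comparisons of groups. Tln2 (1.79 and 1.77) had larger values with TGF-β than Tln1, Actn4 smaller ones than Actn1, and Pdlim2 and Pdlim4 lay below 0 in every comparison.

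The members were set against lists of the machinery around them. Their counts are to be read beside the shares of all genes tested, which were 39.3% higher and 33.4% lower with TGF-β in WT and, under TGF-β, 28.9% higher and 26.3% lower in KO. Of 37 other adhesion adaptors and LIM proteins tested, 20 rose and 11 fell with TGF-β in WT, and under TGF-β 25 were higher in KO and 7 lower, so that the genes that fell in WT were about as frequent as among all genes. Csrp2, a LIM protein of smooth muscle, rose by a log2 of 2.11 in WT, from 45.6, 43.2 and 46.7 CPM to 195, 190 and 198 CPM. The parvin gene Parvb (1.38) and Lims2 (1.29), a PINCH protein, were the genes of the list highest in KO-TGF over WT-TGF. Sorbs2, an adaptor that binds vinculin, fell with TGF-β from 598, 613 and 603 CPM to 159, 163 and 156 CPM in WT, and from 367, 355 and 356 CPM to 21, 22.8 and 23.7 CPM in KO. It was the lowest of the list in both comparisons, at log2 -1.92 with TGF-β in WT and -2.82 between the genotypes under TGF-β. The median of the list was 0.21 with TGF-β in WT and 0.33 between the genotypes under TGF-β.

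Of 27 stress fibre actins, myosins and crosslinkers, 23 rose and 4 fell with TGF-β in WT and also in KO, 22 were higher in KO without TGF-β and 23 with it, where 39.3%, 36.4%, 35.6% and 28.9% of all genes tested were higher in the same 4 comparisons. The median log2 fold change was 0.65 with TGF-β in WT, near the 0.57 of the members. Acta2, smooth muscle actin, had 1472, 1559 and 1590 CPM in WT-SD, 2964, 2871 and 2985 in WT-TGF, 3330, 3239 and 3200 in KO-SD and 6328, 6370 and 6385 in KO-TGF. Its KO-SD libraries thus lay above its WT-TGF libraries, as those of Vcl, Zyx and Lpp did. Tagln (1.76), Actg2 (1.68) and Cnn1 (1.56) rose with TGF-β in WT, and Actg2 (2.52) and Myl9 (1.32) were the highest of the list in KO-TGF over WT-TGF. Mylk, the kinase that activates myosin light chain, fell instead, by 0.88 on the log2 scale in WT, and was lower in KO than in WT cells under TGF-β (log2 -2.13). Myh10 fell with TGF-β (-1.04) and Synpo was lower in KO-TGF (-0.85).

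Of 21 adhesion kinases and signalling genes, 15 rose and 2 fell with TGF-β in WT, and under TGF-β 15 were higher in KO and 1 lower, against 39.3% and 33.4%, and 28.9% and 26.3%, of all genes tested. Fyn (0.69) and Pak1 (0.68) rose most in WT, Arhgef6 (-0.59) and Dock1 (-0.20) fell, and Fyn (0.50), Src (0.40) and Arhgef6 (-2.41) stood out between the genotypes under TGF-β. Of 35 genes of the RhoA pathway and actin turnover, 17 rose and 12 fell in WT with a median of 0.07, near the 39.3% and 33.4% and the median of 0.03 of all genes tested, and under TGF-β 22 were higher in KO and 5 lower, against 28.9% and 26.3%. Tmsb4x (1.03) and Cfl1 (0.83), which bind and sever actin, rose, and Ect2 (-1.0) and Diaph3 (-0.85) fell. Arhgef2 (0.97) and Ect2 (0.72) were higher and Ssh3 (-0.91) and Dlc1 (-0.53) lower in KO-TGF.

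Of 7 genes of the SRF and MRTF list, 5 rose and 2 fell with TGF-β in WT, against 39.3% and 33.4% of all genes tested, and under TGF-β 2 were higher in KO and 2 lower, about the 28.9% and 26.3% of all genes tested. Srf had 56.4, 56.9 and 58.3 CPM in WT-SD, against 97.4, 92.5 and 94.6 CPM in WT-TGF, a log2 fold change of 0.73, and was higher in KO by 0.41 in SD and 0.29 in TGF-β. Elk3 rose by 0.94 in WT and was lower in KO-TGF (-0.25). Mrtfa rose by 0.51 in WT and did not differ past the test between the genotypes under TGF-β (0.02, 95% interval -0.06 to 0.09), but was lower in KO under scaling by library size alone (-0.12, edgeR FDR = 0.00723). Scai (-0.26) and Mrtfb (-0.25) fell in WT, and Scai was lower (-0.25, with a DESeq2 FDR of 0.0501) and Elk1 higher (0.13, but -0.01 under scaling by library size alone) in KO-TGF. The genes of this list so differed less between the genotypes than the members did, a comparison of sizes that was not tested.

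Markers of other cell types moved with the groups as well. The summed level of 10 macrophage markers was 36.0 to 39.1 CPM in WT-SD, 19.7 to 23.6 in WT-TGF, 8.15 to 9.78 in KO-SD and 2.38 to 2.71 in KO-TGF, with Adgre1, C1qa and C1qb at 0 in both KO groups. That of 8 tubule markers was 71.0 to 77.0, 18.0 to 19.4, 19.2 to 22.3 and 4.37 to 4.63 CPM, with Slc34a1, Umod and Aqp2 at 0 throughout, and that of 8 endothelial markers was 32.4 to 33.0, 20.3 to 22.7, 17.3 to 18.6 and 9.37 to 11 CPM, with Cdh5 at or under 3 counts throughout. The 8 podocyte markers summed to 452 to 460, 457 to 476, 218 to 228 and 208 to 223 CPM. Much of that sum was Synpo, also in the stress fibre list, with group means of 242, 314, 160 and 175 CPM. Of the 4 podocyte markers tested, Synpo rose and 3 fell with TGF-β in WT and also in KO. The rise of Synpo in KO (log2 0.13) turned to -0.09 under scaling by library size alone. Among all genes tested, 33.4% fell in WT and 37.8% in KO. The median log2 fold change of these 4 markers was -0.44 in WT and -0.71 in KO. Between the genotypes all 4 were lower in KO, with a median of -1.75 without and -1.91 with TGF-β. Of all genes tested, 21.6% and 26.3% were lower in KO in these comparisons. The macrophage, tubule and endothelial sums were lower with TGF-β in either genotype and lower in KO in either condition, and the podocyte sum was lower in KO, while the summed members were higher. The endothelial sum was almost wholly Ehd3 (32.1 CPM in WT-SD, against 17.2 in KO-SD), and not every gene followed its sum. Aqp1, a tubule marker, had 4.03 CPM in WT-SD, against 6.82 in KO-SD, and Pecam1, Tek and Kdr, each under 1 CPM in every group, also had their higher mean in KO without TGF-β. The 10 mesangial markers summed to 4379 to 4545, 8791 to 9028, 7378 to 7421 and 14842 to 15028 CPM, a sum made mostly of Acta2, Vim and Tagln (1540, 1894 and 702 CPM in WT-SD). Cspg4 shared the order of the sum, with 39.0 CPM in WT-SD, 175 in WT-TGF, 95.8 in KO-SD and 492 in KO-TGF. Gata3 was likewise lowest in WT-SD (3.96 CPM) and highest in KO-TGF (9.23 CPM). Others of the mesangial markers did not share that order, since from WT-SD to KO-TGF Des went from 7.53 to 0.250, Pdgfra from 3.48 to 0.215 and Itga8 from 2.84 to 0.646 CPM, and Pdgfrb had 385 CPM in WT-TGF, against 363 in KO-TGF. The part of cell composition in the results was not tested.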

How the data were processed

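RNA of MMC, in 12 libraries, 3 in each of 4 groups, was sequenced as 51 bp single-end reads. Alignment by the authors used TopHat and mm10, and HTSeq-count (strand-specific, -a 10) gave the raw counts per RefSeq gene that they deposited, with no normalization. Reads on several genes or with several alignments were not counted, and the totals of unassigned reads (no feature 10.3% to 15.4%, not unique 11.2% to 11.7%, ambiguous 0.225% to 0.274%) were left out here.

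From the deposited counts, 11469 genes with RPKM above 1 in at least 1 library (exon union, GENCODE vM21) were tested with edgeR 4.0.16 in R 4.3.3: TMM, glmQLFit and glmQLFTest over all 12 libraries, Benjamini-Hochberg adjustment. Tested in 5 contrasts were the TGF-β response of either genotype, the difference between genotypes in either condition, and the interaction. CPM uses TMM-scaled library sizes. The fit was run on simulated data in which a small part of the genes changed, as many up as down. That run does not bear on the choice of scaling. Alternatives were scaling by library size, DESeq2 1.42.0, other filters, a fit of only the groups compared, a replicate block and each library left out. Within-library ratios were added after the values were seen.

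The members, the gene lists and the rule for naming genes were chosen with earlier results of these data known. Named were all members, their close family genes, of each list the 2 highest and 2 lowest genes in the WT response and in KO-TGF against WT-TGF (past FDR 5%, at least 5 mean CPM, no overlap of libraries), Acta2, Tagln, Myl9, Cnn1, Srf and Mrtfa, and the gene nearest in pattern to each member. Results for some genes that meet this rule are not reported here. Promoter windows are those of RefSeq on GRCm38.p6. The intervals given are those of log2 fold changes from the edgeR fit, and they include the spread between libraries as well as counting error.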

Additional observations from a re-analysis of the deposited data

Results flagged for a closer look

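The TGF-β response differed between the genotypes, by the test of the interaction itself, for 6 of the 10 genes, where 26.4% of all genes tested passed (7.69% with a higher and 18.7% with a lower value in KO). As the log2 response in KO less that in WT, it was -0.41 for Zyx, -0.24 for Vcl and -0.19 for Lasp1, and 0.17 for Tln1, 0.23 for Pxn and 0.23 for Lpp. Zyx and Lpp, of the same protein family, had values of opposite sign. These signs held in every alternative run.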

How the results depend on the processing

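Scaling by library size alone changed most. Members lower with TGF-β in WT became 2 (from 1), members past a 2-fold change became 0 with TGF-β in WT, 0 with TGF-β in KO and 0 between the untreated genotypes (from 2, 2 and 1), and members lower in KO-TGF became 3 (from 0). Log2 fold changes turned to -0.10 for Pxn with TGF-β in WT, to -0.01 for Lima1 in KO-SD, to -0.09 for Pxn and -0.12 for Lima1 in KO-TGF, and to -0.02 for Flna and 0.00 for Pdlim7 in the interaction. Lasp1 in KO-TGF turned to 0.01 with DESeq2, and the interaction of Flna to -0.01 without WT-SD replicate 3 (-0.01 to 0.02 over all libraries left out in turn); both values were close to 0 as reported. With DESeq2 the response of Pxn in WT was 0.07 and did not pass (FDR = 0.0606). The causes were not tested.

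The replicate numbers did not pair the libraries (correlations of deviations between -0.02 and 0.07), and with the replicate number as a block the members called stayed at 10, 10, 10, 7 and 6 in the 5 contrasts. Of the member log2 fold changes under the alternatives, 876 kept their direction and call, 8 reversed, 2 lost and 4 gained the call. Scaling can move differences well above a few percent, as the log2 response of Zyx in KO (0.25) was 0.03 and did not pass under scaling by library size alone.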
